A study of Mus musculus with 2 samples.

Results

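The variable (V) segments of the immunoglobulin heavy chain were followed in activated mouse B cells through 21 array probes out of 41174 noncontrol probes. A probe was chosen when its gene name began with Ighv or Igh-V, or when its description held immunoglobulin or Ig together with heavy chain and variable. The gene name chose 9 probes, all called Igh-VJ558 after the largest mouse V family, and the description alone chose the other 12. The 21 probes stand for 17 accessions, so probes are not independent of each other.

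Splenic B cells of C57BL/6 mice, purified by removing CD43-positive cells, were transduced with a retrovirus that carried miR-181b and GFP. The cells they were set against carried the control GFP vector. Both groups were grown with 25 µg/ml lipopolysaccharide and 10 ng/ml interleukin-4, were exposed to virus for 20 h with 8 µg/ml polybrene, and were sorted for GFP after 2 days. The series holds 1 RNA sample per vector, and both RNAs were hybridised together on 2 whole-genome Agilent arrays with the dyes exchanged. The miR-181b RNA was labelled with Cy5 for array 1 and with Cy3 for array 2. Since the arrays repeat 1 RNA pair on 1 slide, no test between conditions was possible, and ± below is the distance of either array from their mean. All differences describe these RNA samples, and a change in how many cells made a transcript and a change in RNA per cell cannot be told apart in bulk RNA.

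An antibody heavy chain is encoded by a V, a D and a J segment joined by recombination, followed by a constant region that sets the class. Each B cell uses mainly 1 such rearrangement, and the letters at the join differ from clone to clone. The V part has conserved framework stretches between variable loops, and the third framework ends shortly before the join. Lipopolysaccharide drives B cells to divide and secrete antibody, with a rise in heavy- and light-chain mRNA, and interleukin-4 directs switching toward IgG1 and IgE. The microRNA miR-181b acts by pairing of its seed, bases 2 to 8, with target RNAs. Its mature sequence, from RefSeq (GRCm38.p6), is the same for the copies on chromosomes 1 and 2. It is shown with the seed in capitals, since it is the agent the vector delivered.
mmu-miR-181b-5p: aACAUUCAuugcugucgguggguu

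The 60-base probe sequences sorted the 21 probes into 5 kinds, and the label V segment held for only some of them. V sequence was carried in the sense direction by 16 probes, of which 6 lay in the body of a V segment and 10 spanned the join of V to D and J. The join was recognised by TATTNNTGT, the codons for the tyrosine and cysteine that close framework 3. These letters were found in the sense direction in 10 of the 21 probes and in 1.04% of all probes, and on the reverse strand in 1 of 21 and in 0.612%. The 5 other probes were not V sequence in the sense direction. Of these, 3 carry the constant region of the alpha chain (IgA), 1 carries the I alpha transcript, an RNA made ahead of the alpha constant exons, and 1 is the reverse strand of a rearranged V segment. The alpha probes were recognised from knowledge of the mouse IgA sequence and not from a table. They come from BC004786, a cDNA with the gene name Igh-VJ558.

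The 3 alpha probes are printed because they had the highest ratios of all members, and the I alpha probe because it did not move with them. No letters are in capitals here.
BC004786 (A_51_P187645): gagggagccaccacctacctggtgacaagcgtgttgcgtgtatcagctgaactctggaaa
BC004786 (A_51_P180159): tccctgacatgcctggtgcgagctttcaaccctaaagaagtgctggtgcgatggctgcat
BC004786 (A_51_P509679): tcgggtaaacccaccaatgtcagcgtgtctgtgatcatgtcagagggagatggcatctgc
AF029748 (A_51_P270661): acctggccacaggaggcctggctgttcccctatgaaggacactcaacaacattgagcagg

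Of the 6 probes of the V segment body, 4 are printed to show how far they share letters. Capitals mark a run of 20 bases held by 3 of the 6 and by 5 of all 41174 probes. The AK007163 pair shared 54 of 60 bases. By contrast, the V probe of BC004786 shared no run longer than 6 bases with any other member, although its gene name is also Igh-VJ558.
AK007163 (A_52_P686392): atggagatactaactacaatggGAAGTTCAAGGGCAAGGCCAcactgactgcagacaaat
AK007163 (A_52_P151887): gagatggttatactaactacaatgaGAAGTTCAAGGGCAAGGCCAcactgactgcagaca
AK136471 (A_51_P328275): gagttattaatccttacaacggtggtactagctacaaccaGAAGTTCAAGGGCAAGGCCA
BC004786 (A_51_P391836): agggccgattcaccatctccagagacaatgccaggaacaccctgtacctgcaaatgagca

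Of the 10 probes across the join, 4 are printed to show what is common and what is clonal, with the reverse-strand probe after them. Capitals mark TATTNNTGT, with the V segment on the left and D and J on the right. All 10 together hold 16 to 32 bases before these letters and 19 to 35 after them. AF218659 and AY182587 both hold GGTAGTAGC, letters of the D segment DFL16.1 that occur in the sense direction in 0.0219% of all probes and on the reverse strand in 0.00971%. Their right ends differ, with the J segment letters TACTTCGAT (JH1) in AF218659 and CTACTTTGA (JH2) in AY182587. U39781 and AF210281 shared 48 of 60 bases, mostly on the V side.
AF218659 (A_52_P544090): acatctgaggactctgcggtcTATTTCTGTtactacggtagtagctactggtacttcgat
AY182587 (A_52_P530750): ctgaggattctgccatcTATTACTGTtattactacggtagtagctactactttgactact
AF210281 (A_52_P476989): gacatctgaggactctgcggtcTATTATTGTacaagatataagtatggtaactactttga
U39781 (A_52_P139027): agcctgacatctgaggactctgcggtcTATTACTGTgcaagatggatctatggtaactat
U26470 (A_51_P209030): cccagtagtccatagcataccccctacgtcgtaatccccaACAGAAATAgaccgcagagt

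In the last of these, U26470, the capitals are the same codons on the reverse strand, so the probe faces the opposite way from the others. The letters of J segments were also searched, with CTACTTTGA (JH2) in 2 of 21 members and in 0.0583% of all probes, TTTGCTTA (JH3) in 2 and in 0.131%, GCTATGG (JH4) in 1 and in 0.335%, and TACTTCGAT in 1 and in 0.0170%, all in the sense direction. On the reverse strand the shares of all probes were 0.0413%, 0.134%, 0.221% and 0.00729% in the same order, and GCTATGG was found there in 1 member, U26470. TGAATGT, the letters that pair with the miR-181b seed, were in 0 of 21 members on either strand, against 0.954% of all probes in the sense direction and 0.646% on the reverse strand. A 60-base probe covers only a stretch of its transcript, and the rest was not searched.

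Of the 21 members, 20 were measured, meaning that all 4 channels were well above background. U26470 was not well above background in any of the 4 channels. Its processed signals were 23.0 and 29.8 in miR-181b RNA and 21.9 and 30.8 in control RNA on arrays 1 and 2, and no ratio is given for it. In all, 25812 probes of the array were measured.

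Most members gave more signal from miR-181b RNA than from control RNA. The median log2 ratio of the 20 measured members, miR-181b over control, was 0.65 (1.57-fold), with 0.43 on array 1 and 0.96 on array 2, while all measured probes had a median of 0.00. Higher signal in miR-181b RNA on both arrays was seen for 17 of 20 members, beside 23.8% of all measured probes. A mean of at least 1.5-fold, with each array in that direction, was reached by 12 of 20 members, beside 0.713% of all measured probes. At least 1.5-fold lower were 0 of 20 members and 0.430% of all. The members made up 12 of the 184 probes that were at least 1.5-fold higher. Not all of these 12 are V probes, since 3 are alpha constant region probes. Of the 16 V probes, 9 were at least 1.5-fold higher and 14 were higher on both arrays.

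**Figure D1:**
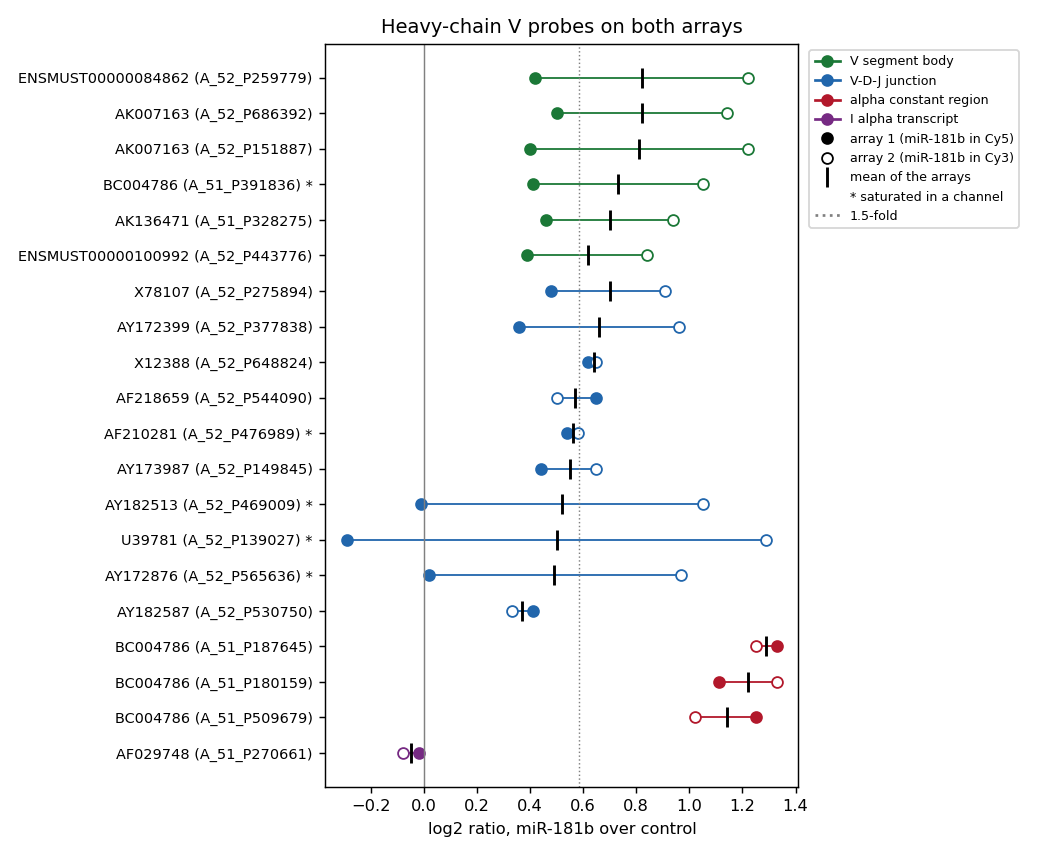
Log2 ratio of miR-181b over control (horizontal axis) for each of the 20 measured members, by accession and probe; filled circles are array 1, open circles array 2, ticks their mean, colours the kind of sequence, asterisks a saturated channel and the dotted line 1.5-fold. The 3 alpha constant region probes lie between 1.14 and 1.29 on the mean with both arrays close together, the 16 V probes between 0.37 and 0.82, and the I alpha probe at -0.05.

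The highest members were the 3 probes of the IgA constant region. A_51_P187645 had processed signals, which the scanner software had freed of background and dye trend, of 6829 and 9318 in miR-181b RNA on arrays 1 and 2, against 2531 and 4007 in control RNA. Its log2 ratios were 1.33 and 1.25, with a mean of 1.29 ± 0.04 (2.45-fold). A_51_P180159 had 4983 and 8289 in miR-181b RNA, against 2272 and 3311 in control RNA, with log2 ratios of 1.11 and 1.33 and a mean of 1.22 ± 0.11 (2.33-fold). The third, A_51_P509679, ends in the tail of the secreted form of IgA. It had 17726 and 24311 in miR-181b RNA, against 7172 and 12171 in control RNA, with log2 ratios of 1.25 and 1.02 and a mean of 1.14 ± 0.11 (2.20-fold). For each of these probes both miR-181b signals lay above both signals of control RNA. They ranked 5, 6 and 7 from the top among all 25812 measured probes, and none was saturated.

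A stricter rule asked for a mean of at least 2-fold and for 1.5-fold on each array. Under it 3 of 20 members were called, all of them alpha constant region probes, beside 0.0155% of all measured probes, which is 4 probes. The fourth was a probe of Ubqln4, a gene of another family.

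The I alpha probe, AF029748, did not share this difference. Its processed signals were 127 and 184 in miR-181b RNA, against 132 and 207 in control RNA. The log2 ratios were -0.02 and -0.08, with a mean of -0.05 ± 0.03. The I alpha transcript is the sterile RNA that precedes switching to IgA, and its probe was dim in both RNAs, in the third of 10 brightness classes of the measured probes. In that class 0.0387% of probes were at least 1.5-fold higher. Whether a difference like that of the alpha probes could be seen at such low signals was not tested.

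The 6 probes of the V segment body were higher in miR-181b RNA on both arrays and were all at least 1.5-fold higher on the mean. Their mean log2 ratios ran from 0.62 to 0.82 with a median of 0.77 (1.71-fold). The ratio was 0.39 to 0.50 on array 1 and 0.84 to 1.22 on array 2, so every body probe had its higher value on array 2. The highest was ENSMUST00000084862 (A_52_P259779), described as an antibody to poly(dC). It had processed signals of 23398 and 45411 in miR-181b RNA, against 17387 and 19348 in control RNA, and log2 ratios of 0.42 and 1.22 (0.82 ± 0.40).

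The AK007163 pair, which shares most of its letters, gave nearly the same values. A_52_P686392 had log2 ratios of 0.50 and 1.14 (0.82 ± 0.32), and A_52_P151887 had 0.40 and 1.22 (0.81 ± 0.41). The gap of 0.01 between them is far below the distance between the arrays. AK136471, with the same 20-base run, had 0.46 and 0.94 (0.70 ± 0.24). The lowest of the body probes was ENSMUST00000100992 (A_52_P443776), from an antibody to beta-2-glycoprotein I, with 0.39 and 0.84 (0.62 ± 0.22). No body probe was lower in miR-181b RNA on either array.

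BC004786 allowed V and constant sequence of 1 cDNA to be set side by side as ratios. Its V probe, A_51_P391836, had processed signals of 66695 and 140387 in miR-181b RNA, against 52067 and 66606 in control RNA, and log2 ratios of 0.41 and 1.05 (0.73 ± 0.32). The miR-181b signal of this probe was saturated on array 1. Its array 1 ratio and its mean are therefore lower bounds and are not ranked against the 1.14 to 1.29 of the 3 alpha probes of the cDNA. The array 2 values, 1.05 for the V probe and 1.02 to 1.33 for the alpha probes, overlapped. Array 2 was, however, the array on which body probes read higher. The 5 body probes never saturated had medians of 0.42 on array 1 and 1.14 on array 2, against 1.25 and 1.25 for the alpha probes. On the mean of both arrays these 5 body probes were at 0.62 to 0.82, below all 3 alpha probes. Probes share a cDNA name here without sharing sequence, and a V probe can bind transcripts of any class.

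The 10 probes across the V-D-J join had mean log2 ratios of 0.37 to 0.70 and a median of 0.55 (1.47-fold). Higher on both arrays were 8 of 10, and at least 1.5-fold higher were 3 of 10. The 6 that were never saturated had a median of 0.61 (1.52-fold), with 6 of 6 higher on both arrays and 3 of 6 at least 1.5-fold higher, against a median of 0.81 for the 5 body probes never saturated. The ranges of body and join probes overlap between 0.62 and 0.70, the probes share V letters, and the difference between the kinds was not tested. X78107, from a BALB/c gamma 1 antibody, was the highest, with log2 ratios of 0.48 and 0.91 (0.70 ± 0.21). AY172399 followed with 0.36 and 0.96 (0.66 ± 0.30), and X12388, an IgM hybridoma sequence, with 0.62 and 0.65 (0.64 ± 0.01).

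The remaining unsaturated join probes stayed below 1.5-fold on the mean. AF218659 had log2 ratios of 0.65 and 0.50 (0.57 ± 0.07), and AY173987 had 0.44 and 0.65 (0.55 ± 0.10). The unprocessed miR-181b signal on array 1 was 64478 for AF218659 and 64502 for X12388. Both are close to the 65234 of AF210281, which was flagged as saturated there. These 2 probes were not flagged and count as never saturated, but their array 1 ratios may be too low. AY182587, which shares the DFL16.1 letters with AF218659, had processed signals of 395 and 619 in miR-181b RNA, against 285 and 450 in control RNA. Its ratios of 0.41 and 0.33 gave the lowest mean of the V probes (0.37 ± 0.04, 1.29-fold). Both of its miR-181b signals exceeded the control signal on the same array. The lowest rank of AY182587 depended on the processing. By the scanner's own log ratio its mean was 0.47, above the 0.46 of the saturated AY172876. Without the correction of a trend with brightness, described below, it was 0.18, above the 0.14 of AF218659 and AY173987.

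Saturation, by the flag of the scanner software, touched 5 of the 20 measured members, 1 body probe and 4 join probes. All 5 were saturated in miR-181b RNA on array 1, where it carried Cy5. Control RNA, in Cy5 on array 2, was saturated for 3 of them (AY182513, U39781 and AY172876), and miR-181b RNA on array 2 for U39781 alone. A saturated channel reads too low, so on array 1 the ratios of these probes are lower bounds, and on array 2 those of AY182513 and AY172876 are upper bounds. AY182513 had log2 ratios of -0.01 and 1.05 (0.52 ± 0.53), and AY172876 had 0.02 and 0.97 (0.49 ± 0.47). U39781, a J558 IgM hybridoma sequence and the brightest member, had -0.29 and 1.29 (0.50 ± 0.79), but on array 2 both of its RNAs were saturated and the value there is no measurement. AF210281, flagged as saturated on array 1 only, had 0.54 and 0.58 (0.56 ± 0.02). Its unprocessed control signal on array 2 was 63409, close to the 65234 of its flagged channel on array 1. The array 2 ratio of AF210281 may therefore be too high, and its ± 0.02 is no measure of precision.

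Without the saturated probes the median of the 15 other measured members was 0.70, of which 14 were higher on both arrays and 11 at least 1.5-fold higher. The 5 saturated probes alone had a median of 0.52. For V sequence alone the median was 0.63 over 16 probes and 0.66 over the 11 never saturated. All 11 of these were higher on both arrays, with ratios of 0.36 to 0.65 on array 1 and 0.33 to 1.22 on array 2, and 8 of the 11 were at least 1.5-fold higher.

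**Figure D2:**
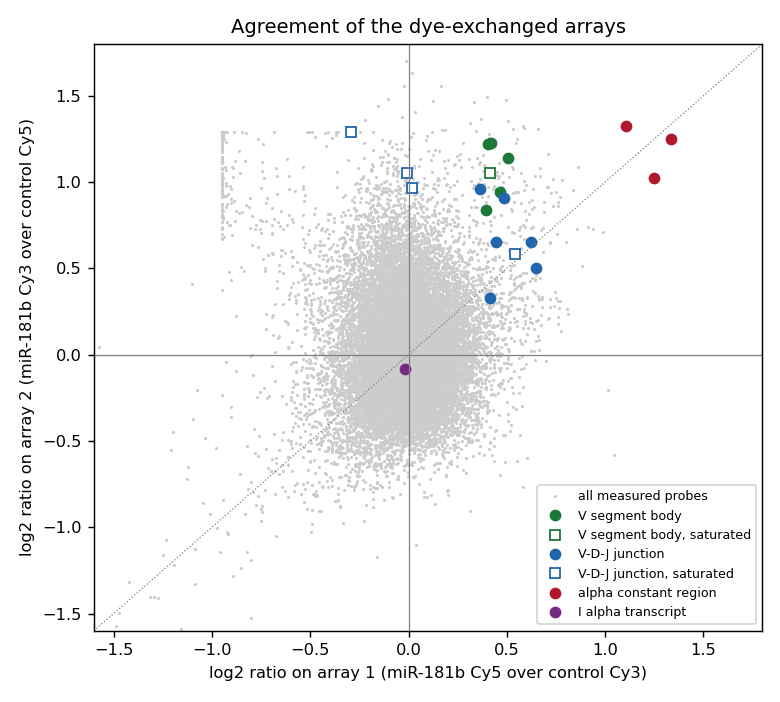
Log2 ratio of miR-181b over control on array 1 (horizontal) against array 2 (vertical) for all 25812 measured probes (grey, 13 outside the axes) and the members, coloured by kind, with open squares for saturated probes and a dotted line of equal values. Most V probes lie above the line, with higher ratios on array 2, and the alpha constant region probes lie near it; the grey column at the upper left holds probes with ratios of opposite sign on the arrays.

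The arrays differed for the V probes, though not for them alone. The ratio was higher on array 2 than on array 1 for 14 of the 16 V probes, beside 49.1% of all measured probes. The 5 saturated V probes are among these 14, and saturation of miR-181b RNA lowers their ratio on array 1. The V probes never saturated had medians of 0.44 on array 1 and 0.91 on array 2. The dye contrast, which is the Cy5 over Cy3 log2 ratio that remains when the vector ratio is taken out, had a median of -0.22 over the 20 measured members, against 0.00 over all measured probes. It was -0.32 for body probes, -0.16 for join probes and 0.04 for the alpha probes. Without saturated probes it was -0.11 over the members, -0.32 for body probes and -0.06 for join probes. Other antibody probes never saturated also had negative medians. These were -0.26 for other heavy-chain V, -0.12 for kappa light-chain V and -0.22 for mu or gamma constant probes. The 8 B cell markers, 3 of them saturated, had median log2 ratios of -0.36 on array 1 and 0.84 on array 2. At least 1.5-fold apart between dyes by the rule used for the vectors was 1 of 20 members, U39781, beside 1.25% of all measured probes. Each dye order was used on 1 array, so an effect of the dyes and a difference between the arrays cannot be told apart. Exchanging the dyes cancels in the mean only the part due to the dyes, and only where no channel is saturated.

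Brightness bore on the V values. Of the 20 measured members, 14 lay in the brightest of 10 equal classes, where 3.56% of probes were at least 1.5-fold higher and the median log2 ratio was 0.02. The 13 V probes in that class had a median of 0.64. The correction of a trend with brightness (loess) set the size of these ratios. Without it, and with each array centred on its median, the median of the brightest class was -0.40 and that of all measured probes was -0.18. In that setting the 13 V probes were at 0.21, which is 0.60 above their class, beside 0.62 with loess.

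The alpha probes kept a median of 0.87 without loess, and the 3 were then the only members at least 1.5-fold higher, beside 0.0387% of all measured probes. That is 10 probes higher and 1131 lower in that setting, against 184 and 111 with loess. Each of the 20 measured members had the same sign of mean ratio in both settings. Relative to the median of all measured probes, the members stood 0.65 higher with loess and 0.47 higher without it.

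**Figure D3:**
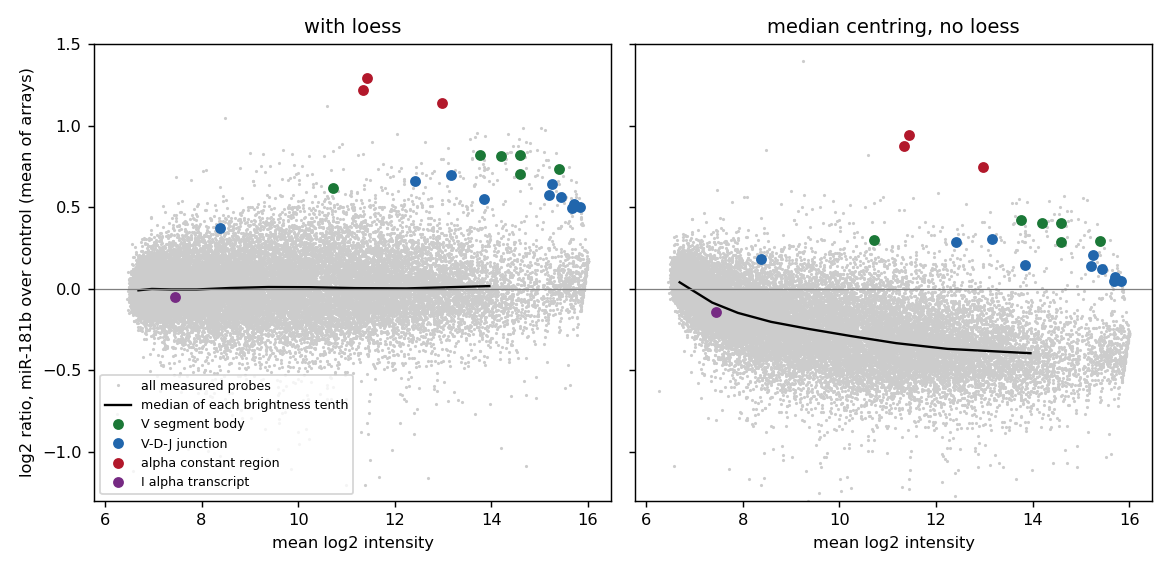
Mean log2 ratio of miR-181b over control (vertical) against mean log2 intensity (horizontal) for all measured probes (grey, 26 outside the axes) and the members by kind, with loess on the left and median centring alone on the right. The black line joins the medians of 10 brightness classes; it stays near 0 with loess and falls to -0.40 in the brightest class without it, while the V probes lie above it in both panels.

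The gene name Igh-VJ558 gave the only V family with at least 2 measured probes under a family name. Its 9 measured probes had a median of 0.81, from -0.05 to 1.29, and 7 of 9 were at least 1.5-fold higher. Only 5 of the 9 hold V sequence, and these had a median of 0.73, from 0.50 to 0.82. That median is the saturated V probe of BC004786, whose letters resemble framework 3 of another V family than J558, as recognised from knowledge of these families and not from a table. The low end is U39781, also saturated, and the 3 never saturated had a median of 0.81, from 0.70 to 0.82. In the RefSeq table (GRCm38.p6) the heavy-chain V segments number 183 in 16 families on chromosome 12, with 63 pseudogenes, and Ighv1, the family that J558 names, holds 92. None of the 17 member accessions was in that table (0 matched), so no member could be given a current segment name.

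Other heavy-chain V probes outside the rule, collected after the values were seen, ran at the same level. Most are predicted genes described as similar to an Ig heavy chain V region. Of 32 such probes 31 were measured, with a median log2 ratio of 0.68, from 0.20 to 0.92, and 24 of 31 were at least 1.5-fold higher. Among them 26 without TATTNNTGT had a median of 0.69 and 5 with it had 0.53. Kappa light-chain V probes, of which 16 were measured, had a median of 0.74, from 0.02 to 0.98, with 12 of 16 at least 1.5-fold higher. The 8 lambda V probes were all saturated, with a median of 0.39. V members therefore lay within the range of these probes, and the difference was not tested.

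With loess, probes named for a mu or gamma constant region were also higher in miR-181b RNA. Over the 6 of 8 that were never saturated the median log2 ratio was 0.49, from 0.36 to 0.69, a range that overlaps that of the V probes, and 1 of 6 was at least 1.5-fold higher. That probe, for Igh-6 (IgM) from BG968342, had 0.41 and 0.97 (0.69 ± 0.28). Igh-4, the IgG1 constant region, had log2 ratios of 0.21 and 0.51 on its brightest probe (0.36 ± 0.15). Igh-1a, a gamma 2a constant region, had 0.56 and 0.45 (0.51 ± 0.05). The other Igh-6 probes were saturated and give no measured level. Without loess the 6 never saturated had a median of 0.17, beside -0.18 for all measured probes. The brightest Igh-4 probe was then at -0.04. No probe carried the gene name of the alpha region.

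**Figure D4:**
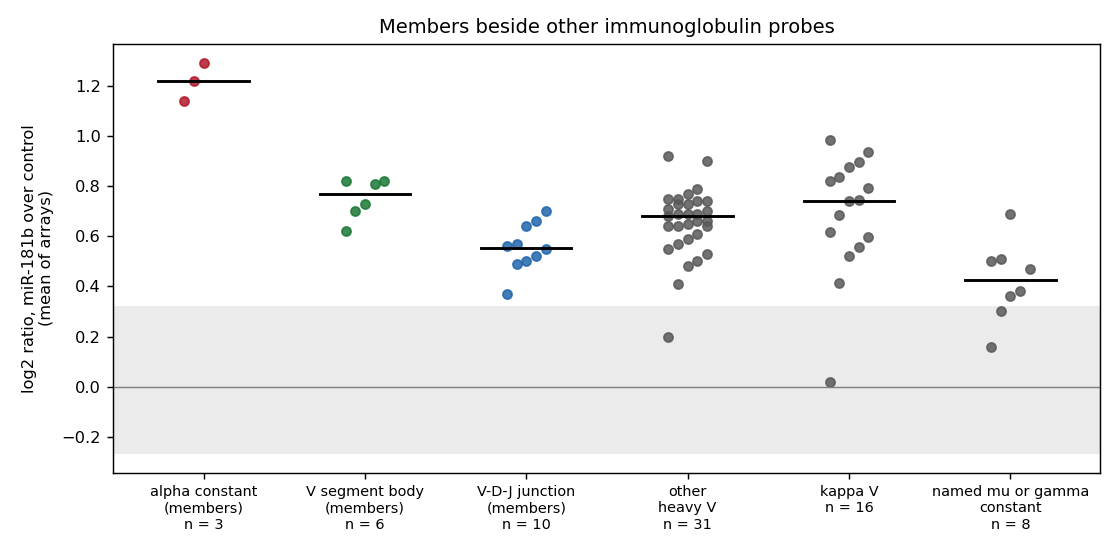
Mean log2 ratio of miR-181b over control (vertical) for member kinds (coloured) and other immunoglobulin probes (grey); each point is a probe, bars are medians, and the band spans the 5th to 95th percentile of all measured probes, -0.27 to 0.32. The 16 V members lie above the band and within the range of the other heavy V and kappa V probes, and the 3 alpha probes lie above all the others.

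Other genes of the antibody pathway had lower list medians than the V probes, with single genes as high or higher. Of the joining chain, surrogate light chain and B cell receptor list, 7 of 8 names were measured, with a median of 0.17 and 1 at least 1.5-fold higher. That gene was Cd79a, a signalling chain of the B cell receptor, at 0.16 and 1.56 (0.86 ± 0.70). Igj, the joining chain of secreted IgM and IgA, was saturated, at -0.41 and 1.29 (0.44 ± 0.85). The V(D)J recombination genes had a median of 0.00 over 11 measured of 12, with 0 at least 1.5-fold changed in either direction. Rag2, a subunit of the recombinase, was not well above background.

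Transcription factors of the heavy-chain locus and of antibody genes had a median of 0.07 over 15 measured of 19. Of them 1 was at least 1.5-fold higher, Xbp1, the factor that drives the secretory programme, at 0.50 and 1.48 (0.99 ± 0.49). Of 14 genes of immunoglobulin folding and export, 12 were measured, 5 of them saturated, with a median of 0.37, 7 higher on both arrays and 3 at least 1.5-fold higher. These were the chaperone partner Dnajb9 (0.62 ± 0.18), the disulfide isomerase Pdia4 (0.73 ± 0.31) and Sdf2l1 (0.67 ± 0.08), a cofactor of folding. In none of these lists was a gene at least 1.5-fold lower. The lists give 1 probe for each gene, the brightest. Without loess the list medians were -0.10, -0.25, -0.30 and -0.06 in the order given, beside -0.18 for all measured probes.

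The labelled cell type was checked against its markers. All 8 B cell markers were measured, and their summed processed signals were 282433 and 805205 in miR-181b RNA, against 476613 and 378504 in control RNA, with 3 of 8 saturated (Cd74, Cd79b and Ms4a1). Of 8 plasma cell names 6 were measured, with a median ratio of 0.28, 4 of 6 higher on both arrays, and sums of 121802 and 328448 in miR-181b RNA, against 138454 and 136477 in control RNA. Without loess the median of the plasma cell names was -0.01. T cell markers summed to 6215 and 8132, against 6512 and 9924, and macrophage markers to 4832 and 6857, against 4537 and 6776, in the same order of RNAs. Gzma and Ncr1 (natural killer cells), and Cpa3 and S100a8 (mast cells and granulocytes), were not well above background. Whether the share of antibody-secreting cells took part in the V values was not tested.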

How the data were processed

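Per the labels, 1 RNA sample per vector was labelled with Cy3 or Cy5 (2 µg, RNA integrity 9.7 to 9.8) and hybridised on 2 arrays of 1 slide with the dyes exchanged. The scanner files came from Agilent Feature Extraction, version 9.1.3.1 per the file headers. Deposited in them are mean and local background intensity on a linear scale, a processed intensity after background subtraction and dye normalisation, the deposited log10 ratio of Cy5 over Cy3, and other deposited values, the flags for saturated, outlier and well-above-background spots. A table of log2 ratios in the series was not used here, since its rows were not assigned to probes. Read as spot numbers, its row identifiers gave a correlation of -0.00215 with the scanner log ratio of array 1.

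In R 4.3.3 with limma 3.58.1, intensities were corrected by normexp (offset 50) and loess within arrays with control spots at weight 0. Outlier spots were left out (7 and 21), saturated spots kept, spots of a probe averaged, and ratios turned to miR-181b over control. Of 45018 spots per array, 64.7% to 67.7% were well above background in a channel. The number of arrays limits precision. The steps were tested on simulated arrays. Named were the 10 highest and 5 lowest measured members, the brightest of each family, every saturated member, alike pairs, and up to 3 genes of each list; other names were chosen after their values were seen. Results for some marker genes are not reported here. Members, lists and kinds of sequence were chosen with earlier results of these data known. Alternatives were background, loess, scaling, filters, member rules, thresholds and single arrays. The tables were made in Python 3.11.15 with pandas 2.3.3.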

Additional observations from a re-analysis of the deposited data

How the results depend on the processing

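The median log2 ratio of the measured members was 0.65 and lay between 0.28 (no loess) and 0.96 (array 2 alone) over all alternatives with the members as chosen, with no change of sign. Alternatives below that concern V sequence or a separate word Ig were chosen after seeing the data. On single arrays the median was 0.43 to 0.96, the count at least 1.5-fold higher 5 to 16, the count above 0 17 to 19 and the family median 0.46 to 1.14. No share of all measured probes is given for single arrays, so these counts are not set against the array as a whole. The count at least 1.5-fold higher, 12 of 20, was 3 without loess and 3 at 2-fold on the mean with 1.5-fold on each array. It was 5 of 12 with the brightest probe per gene name, 6 of 12 with their mean, and 7 of 9 with members by gene name alone, where fewer probes are counted. The count higher on both arrays, 17 of 20, was then 10, 11 and 7, and it was 11 of 11 for V sequence without saturated probes. For V sequence without loess the median fell to 0.24, against 0.63 with loess, with 0 at least 1.5-fold higher, 9 of 16 higher on both arrays and a family median of 0.29. In that setting 0.0387% of all measured probes were at least 1.5-fold higher, and their share higher on both arrays is not given. The dye contrast, -0.22, was -0.11 without saturated probes and turned to 0.07 without loess and to 0.04 for V sequence without loess. The scanner's own log ratio, no background subtraction, no filter on dim probes, 1 probe per group alike over 80% of bases, and Ig as a separate word changed no count of members by over 1.5 times. Over all measured probes the scanner's log ratio moved the counts at least 1.5-fold higher and lower from 184 and 111 to 305 and 263, and leaving out loess moved them to 10 and 1131. Aquantile scaling leaves ratios as they are by construction. Of 20 member ratios, without loess 12 moved by more than the standard deviation of their 2 array values, and 0 changed sign. That measure is smaller than the full distance between the arrays. On array 1 alone 2 were below 0 that were above it on the mean, AY182513 (-0.01 on array 1 and 1.05 on array 2) and U39781 (-0.29 and 1.29), both saturated. The deposited table and a slide block were not run, since the rows of that table were not assigned to probes and both arrays share 1 slide. No paired analysis was possible because there is 1 RNA sample per vector. With 1 RNA pair, none of these values carries a biological error.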

Other observations

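Probes filed under 1 heavy-chain constant gene did not all give the same ratio. For Igh-1a, A_51_P311235 had 0.56 and 0.45 (0.51 ± 0.05), against 0.39 and 0.37 (0.38 ± 0.01) for A_51_P351953. For Igh-4, the probes from AK041235 had 0.18 and 0.77 (0.47 ± 0.29, A_51_P461067) and 0.22 and 0.79 (0.50 ± 0.28, A_52_P1054013). The probe from X87228 had 0.21 and 0.51 (0.36 ± 0.15), so the Igh-4 means stood no further apart than the spread between arrays. Members carried more G and C than the array as a whole, with a median of 45.0% (36.7% to 56.7%) against 40% over all probes. The number of array probes that shared at least 20 bases with a member ranged from 0 to 5 for body probes and from 1 to 16 for join probes, the most for U39781.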
